A study of Mus musculus with 12 samples.

Results

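Neurofilaments, microtubules and the motors that walk along them were followed in the cerebellum of a mouse model of spinocerebellar ataxia type 7, a polyglutamine disease caused by a CAG repeat expansion in the ataxin-7 gene. The genes were chosen by name: every row whose symbol begins with Nefh, Nefl, Nefm, Stmn, Tuba, Tubb, Tubg, Kif, Klc, Dync or Dynl, or is Ina, Mapt, Map1a, Map1b, Map1s or Map2. The rule found 54 genes among the 7667 rows that carry a gene name. It used no measured value. In the GENCODE M21 annotation 101 protein-coding genes have such names, of which 53 had a row, and the remaining row, Tubb2a-ps2, is annotated as a processed pseudogene. The other genes of these names were not analysed here.

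The 4 groups were fxSCA7 92Q mice at 29 weeks, wild-type littermates at 29 weeks, fxSCA7 92Q mice at 12 weeks and wild-type littermates at 12 weeks. The 92Q animals carry 92 CAG repeats and the wild type a repeat of normal length. The labels name no other allele, treatment or sex, and give no promoter or cell type for the expanded gene. Each group was sequenced as 3 libraries of total RNA, each from the pooled tissue of 3 mice, 12 libraries in all, but the deposited values are 1 per gene and group. One of the libraries of 29-week 92Q has a library number well apart from the other numbers at that age, and its part in the group value cannot be separated. Every comparison below therefore has no replicate error and no test. A value is the authors' normalized score for a group, rounded to a whole number, of unknown read depth. The sources used here do not state its unit, so levels are compared between groups and not between genes, and the sums given for marker lists only describe the groups.

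In neurons, neurofilaments fill large myelinated axons and set their calibre, and they assemble from a light, a medium and a heavy subunit together with alpha-internexin. Microtubules are polymers of alpha and beta tubulin, started by gamma tubulin, steadied by microtubule-associated proteins such as tau and loosened by stathmins. Kinesins carry cargo mostly outward along them and cytoplasmic dynein carries it back towards the cell body. In the cerebellum the long axons are those of Purkinje cells, of neurons of the cerebellar nuclei and of fibres that enter from outside, while granule cells send out thin parallel fibres.

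As a whole the 54 genes differed little by genotype. A ratio here is the difference of log2(value + 1), 92Q minus wild type, and a gene counts as higher or lower past 1.2-fold, a log2 ratio of 0.263 in size. At 29 weeks 3 of the 54 passed, Nefm and Tuba1a higher and Tuba8 lower, which is 5.56% of them against 6.03% of all 7666 genes compared. By direction the background was 3.10% higher and 2.92% lower. At 12 weeks only Tuba8 passed, lower in 92Q, which is 1.85% of the 54 against 1.71% of 7660 genes (0.392% higher and 1.32% lower). The median log2 ratio of the 54 was 0.039 at 29 weeks and 0.030 at 12 weeks, and that of all genes 0.00 at both ages. The shares past 1.2-fold were close to the background at both ages. In bulk tissue, fewer cells of a type and less RNA per cell cannot be told apart, and this holds for Tuba8 and for every gene below.

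Counted by direction alone, the split was near the background at 29 weeks and further from it at 12 weeks. By any amount, the 29-week 92Q value was above wild type for 31 of the 54 and below it for 13, which is 57.4% and 24.1% of the set, against 49.5% and 26.1% of all genes. At 12 weeks 32 were higher and 12 lower, which is 59.3% and 22.2% of the set, against 32.1% and 36.7% of all genes. This split depends on the scaling between columns. After scaling by median ratios 30 were higher and 24 lower at 29 weeks, with 47.8% of the differing genes higher over the whole table, and after upper quartile scaling 44 were higher and 9 lower at 12 weeks, with 67.7% of the differing genes higher over the whole table. Differences of 1 unit cannot be told from rounding. Counting only differences too large for rounding, 25 genes were higher and 9 lower at 29 weeks, against 27.1% and 14.5% of all genes. At 12 weeks 18 were higher and 9 lower, against 11.3% and 18.7%. Genes of high value exceed rounding more readily, and 42 of the 54 averaged 20 or more against a median of 22 for all genes.

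**Figure D1:**
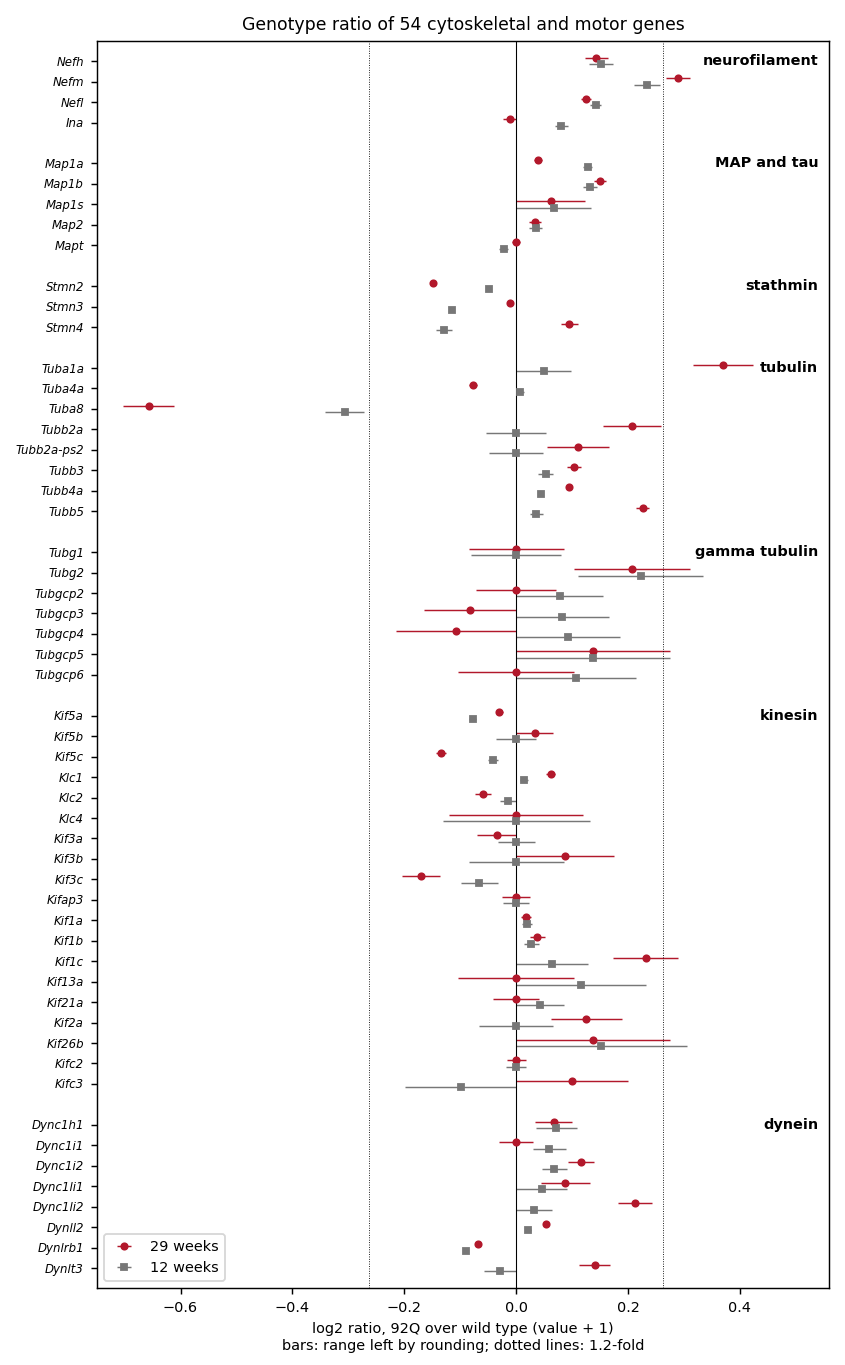
Log2 ratio of 92Q over wild type for each of the 54 genes, grouped by role, at 29 weeks (red circles) and at 12 weeks (grey squares). Bars give the range that rounding leaves, and dotted lines mark 1.2-fold. Tuba8 lies furthest to the left at both ages, at -0.66 and -0.31, and Nefm, Nefh and Nefl lie to the right at both.

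The cerebellar label was checked against its markers, and all 12 Purkinje cell and all 11 granule neuron markers had a row. Several marker lists differed between the same groups. The Purkinje list was lower in 92Q in 12 of 12 genes at both ages, with a summed level of 3668 in 92Q and 5798 in wild type at 29 weeks, and 5476 in 92Q and 6961 in wild type at 12 weeks. Microglia markers were higher in 9 of 9 at 29 weeks, summing to 332 in 92Q and 156 in wild type, and summed to 137 in 92Q and 138 in wild type at 12 weeks. Purkinje markers were thus lower at both ages, while the microglia sum differed at the older age. Of the 9 microglia markers Cd68, Trem2 and Cx3cr1 reached 10, the least that any row has, in 29-week 92Q alone, so their direction was fixed. Myelin markers were higher in 9 of 11 at 29 weeks and lower in 9 of 11 at 12 weeks, with sums of 4368 in 92Q and 4087 in wild type, and of 3819 in 92Q and 4073 in wild type. Astrocyte markers were higher in 5 of 9 at 29 weeks (1641 in 92Q and 1496 in wild type) and in 3 of 9 at 12 weeks (1547 in 92Q and 1581 in wild type), and Gfap, the astrocyte filament gene, was 235 in 92Q and 95 in wild type at 29 weeks, and 87 in 92Q and 88 in wild type at 12 weeks. The part of these cell types in the ratios of the 54 genes was not tested.

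Granule neuron markers were lower in 8 of 11 at 29 weeks, summing to 2499 in 92Q and 2708 in wild type, and higher in 9 of 11 at 12 weeks, summing to 3076 in 92Q and 2986 in wild type. Markers of large projection neurons, cells rich in neurofilament, had rows for 6 of 12 genes, of which 3 were higher and 3 lower at 29 weeks (sums of 925 in 92Q and 1048 in wild type) and 5 lower and 1 equal at 12 weeks (1060 in 92Q and 1156 in wild type). Pvalb stands on both this and the Purkinje list. It makes up most of each sum of the projection neuron list, but not of the Purkinje sums. It was 580 in 92Q and 734 in wild type at 29 weeks, and 788 in 92Q and 878 in wild type at 12 weeks. Th reached 10 in 29-week wild type alone. Spp1 was 64 in 92Q and 27 in wild type at 29 weeks, and 28 in both at 12 weeks. All 9 microglia markers were likewise higher in 92Q at 29 weeks, and which cells gave the Spp1 values was not tested. Slc17a6, the glutamate transporter of the large projection neurons, was 24 in 92Q and 21 in wild type at 29 weeks. At 12 weeks it was 14 in 92Q and 16 in wild type. The projection neuron markers had no common direction at 29 weeks. Interneuron and unipolar brush cell markers were lower in 5 of 6 at 29 weeks (351 in 92Q and 423 in wild type), and 3 were higher and 2 lower at 12 weeks (397 in 92Q and 401 in wild type). Choroid plexus and ependymal markers were higher in 6 of 7 at 29 weeks (1480 in 92Q and 484 in wild type) and lower in 3 of 5 compared at 12 weeks (30 in 92Q and 374 in wild type), where Kl and Sostdc1 are listed at 0 in 92Q. Ttr alone was 1403 in 92Q and 445 in wild type at 29 weeks, and 6 in 92Q and 336 in wild type at 12 weeks. Of the 7 markers, Kl, Sostdc1, Kcnj13, Clic6 and Foxj1 reached 10 in 29-week 92Q alone, so that 5 of the 6 higher ones had to be higher there. No marker of dividing cells had a row. Transcripts of the sex chromosomes differed too. Xist was 25 in 92Q and 63 in wild type at 29 weeks, and 30 in 92Q and 66 in wild type at 12 weeks. The Y-linked Eif2s3y was 15 in 92Q and 6 in wild type at 29 weeks. At 12 weeks it was 12 in 92Q, while its wild-type value is listed at 0. Effects of genotype and of the sexes pooled cannot be told apart.

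The neurofilament triplet genes were higher in 92Q than in wild type at both ages. The background for this direction was 49.5% of all genes at 29 weeks and 32.1% at 12 weeks. Nefm, the medium subunit, was 76 in 92Q and 62 in wild type at 29 weeks, and 66 in 92Q and 56 in wild type at 12 weeks. Nefh, the heavy subunit with the long phosphorylated tail, was 73 in 92Q and 66 in wild type at 29 weeks, and 69 in 92Q and 62 in wild type at 12 weeks. Nefl, the light subunit on which the filament is built, was 168 in 92Q and 154 in wild type at 29 weeks, and 148 in 92Q and 134 in wild type at 12 weeks. For all 3 genes the highest value was that of 29-week 92Q and the lowest that of 12-week wild type, and the direction of each genotype ratio held under the 3 scalings tried. Ina, which encodes alpha-internexin, did not share this order, with 121 in 92Q and 122 in wild type at 29 weeks, and 128 in 92Q and 121 in wild type at 12 weeks.

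On the log2 scale Nefm was higher by 0.29 at 29 weeks, with rounding leaving 0.27 to 0.31, and by 0.23 at 12 weeks. It passed 1.2-fold at the older age only, where scaling by median ratios gave 0.262, just under the threshold, while upper quartile scaling gave 0.27 at 12 weeks, just over it. For Nefh the log2 ratio was 0.14 at 29 weeks and 0.15 at 12 weeks, and for Nefl 0.12 and 0.14, so neither reached 1.2-fold. At a threshold of 1.1-fold, added after the values were seen, Nefm and Nefh passed at both ages and Nefl at 12 weeks alone. The full count past 1.1-fold was 10 of the 54 genes higher in 92Q and 3 lower at 29 weeks (background 12.5% and 7.42%), and 5 higher and 1 lower at 12 weeks (background 3.12% and 6.74%). The genotype ratios of the triplet differed between the ages by -0.018 to 0.056, which is the 29-week ratio minus the 12-week ratio.

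Nefl and Nefm are neighbours on chromosome 14, at 68083863 to 68089095 on the plus strand and 68082590 to 68124846 on the minus strand (mm10, GENCODE M21). One long annotated Nefm transcript runs through Nefl, so that 31.8% of the 50-base windows of the Nefl transcript are also found in Nefm on the opposite strand. No source used here states whether the counting used strand, and without strand reads of those windows could be assigned to either gene. Nefh, on chromosome 11 at 4938754 to 4948064, shares no 50-base window with another annotated transcript, and its ratios were as given above.

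**Figure D2:**
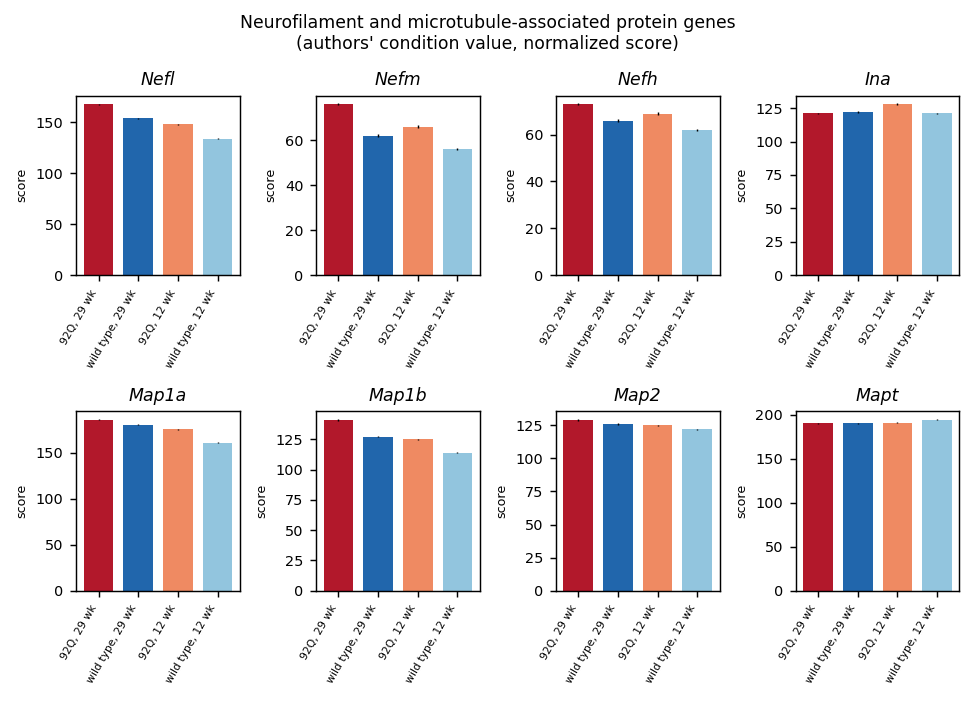
Normalized score of 4 neurofilament genes (top row) and 4 microtubule-associated protein genes (bottom row) in the 4 groups. Each bar is 1 group value and each tick on it the range of rounding. Nefl, Nefm and Nefh are highest in 29-week 92Q (168, 76 and 73) and lowest in 12-week wild type (134, 56 and 62), while Mapt lies between 190 and 194 in all groups.

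Microtubule-associated proteins bind along the polymer and space it. Map1b, found in growing axons, was 141 in 92Q and 127 in wild type at 29 weeks, and 125 in 92Q and 114 in wild type at 12 weeks, log2 ratios of 0.15 and 0.13. Map1a, its counterpart in mature neurons, was 186 in 92Q and 181 in wild type at 29 weeks, and 176 in 92Q and 161 in wild type at 12 weeks, log2 ratios of 0.039 and 0.13. Both genes were, like the neurofilament triplet, highest in 29-week 92Q and lowest in 12-week wild type. Map2, a protein of dendrites, was 129 in 92Q and 126 in wild type at 29 weeks, and 125 in 92Q and 122 in wild type at 12 weeks. Mapt, which encodes the axonal protein tau, was 190 in both genotypes at 29 weeks, and 191 in 92Q and 194 in wild type at 12 weeks, a difference that changed sign under upper quartile and quantile scaling. Map1s, a short and widely expressed relative of Map1a, was 23 in 92Q and 22 in wild type at 29 weeks, and 21 in 92Q and 20 in wild type at 12 weeks, differences of 1 unit that rounding alone can give. None of the 5 passed 1.2-fold at any age.

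Stathmins bind free tubulin and promote the shortening of microtubules. Stmn2, a stathmin of axons and growth cones, was 340 in 92Q and 377 in wild type at 29 weeks, and 410 in 92Q and 424 in wild type at 12 weeks. Its log2 ratio was -0.15 at 29 weeks and -0.048 at 12 weeks, the second of which was -0.0089 after quantile normalization. Stmn3 and Stmn4 are further stathmins of neurons. Stmn3 was 391 in 92Q and 394 in wild type at 29 weeks, and 423 in 92Q and 458 in wild type at 12 weeks, which gave log2 ratios of -0.011 and -0.11. Stmn4 was 93 in 92Q and 87 in wild type at 29 weeks, and 95 in 92Q and 104 in wild type at 12 weeks, log2 ratios of 0.095 and -0.13. All 3 were lower in 92Q at 12 weeks, where 36.7% of all genes were lower, and at 29 weeks Stmn4 was the higher one. Under quantile normalization Stmn3 was higher in 92Q at 29 weeks. No stathmin passed 1.2-fold between genotypes.

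Among the tubulins the largest genotype ratio was that of Tuba8, which was lower in 92Q at both ages. Tuba8, an alpha tubulin isotype, was 25 in 92Q and 40 in wild type at 29 weeks, and 37 in 92Q and 46 in wild type at 12 weeks. The log2 ratio was -0.66 at 29 weeks, with rounding leaving -0.70 to -0.61, and -0.31 at 12 weeks, with rounding leaving -0.34 to -0.27. It was the only one of the 54 genes past 1.5-fold in any comparison, at 29 weeks, and the only one that the authors' deposited table of 99 genes contains. For 29 weeks 0.535% of all genes were higher and 0.730% lower past 1.5-fold, for 12 weeks 0.0783% and 0.170%, for age in 92Q 0.978% and 0.483%, and for age in wild type 0.222% and 0.144%. The 29-week minus the 12-week log2 ratio of Tuba8 was -0.35, the most negative of the 54. The 12 Purkinje markers had median log2 ratios of -0.61 at 29 weeks and -0.26 at 12 weeks, and their part in the Tuba8 values was not tested. Tuba8 lies on chromosome 6 at 121210696 to 121226854, plus strand. A non-coding gene on the opposite strand, Gm15856, covers 14.5% of the windows of its transcript, and 0.181% of the windows occur in tubulin genes elsewhere.

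Of the other 2 alpha tubulins Tuba4a had a small ratio and Tuba1a one of opposite sign. Tuba4a, 47.7% of whose windows lie in the overlapping gene Stk16, was 181 in 92Q and 191 in wild type at 29 weeks, and 204 in 92Q and 203 in wild type at 12 weeks, log2 ratios of -0.077 and 0.0071. Tuba1a, the alpha tubulin of developing neurons, was 30 in 92Q and 23 in wild type at 29 weeks, and 29 in 92Q and 28 in wild type at 12 weeks. That is a log2 ratio of 0.37 at 29 weeks and 0.049 at 12 weeks, and the 29-week wild-type value was the low one of the 4. Sequence shared with other genes makes this value uncertain. Of the Tuba1a windows, 64.3% occur in transcripts of genes elsewhere, 46.9% in Tuba1c alone, whereas Tuba8 is told apart from its relatives by nearly every read. Tuba1c was not analysed here. How reads that match several genes were treated is not stated in the sources at hand.

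The 5 beta tubulin rows were all higher in 92Q at 29 weeks, by log2 ratios of 0.095 to 0.23, and none passed 1.2-fold. Of all genes 49.5% were higher at that age. Tubb5, a widely expressed beta tubulin, was 130 in 92Q and 111 in wild type at 29 weeks, and 120 in 92Q and 117 in wild type at 12 weeks, log2 ratios of 0.23 and 0.036. Tubb4a, abundant in neurons and in oligodendrocytes, was 834 in 92Q and 781 in wild type at 29 weeks, and 872 in 92Q and 846 in wild type at 12 weeks, log2 ratios of 0.095 and 0.044. Tubb3, the neuronal beta tubulin used as a marker of neurons, was 115 in 92Q and 107 in wild type at 29 weeks, and 111 in 92Q and 107 in wild type at 12 weeks. At 12 weeks these 3 were above wild type by 0.036 to 0.053 on the log2 scale, and Tubb2a and Tubb2a-ps2 were equal between genotypes. At 29 weeks the 5 ratios kept above 0 under the 3 scalings tried, except that of Tubb4a, which was 0 after quantile normalization, where its 12-week ratio was 0.21. For the myelin markers the median log2 ratio was 0.17 at 29 weeks and -0.11 at 12 weeks, the microglia markers summed as given above, and their part in the beta tubulin values was not tested.

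Tubb2a was 29 in 92Q and 25 in wild type at 29 weeks, and 26 in both genotypes at 12 weeks. The pseudogene row Tubb2a-ps2 was 26 in 92Q and 24 in wild type at 29 weeks, and 29 in both genotypes at 12 weeks. The last 60 coding bases before the stop codon are shown for 5 beta tubulins, because a read of 50 bases can be placed only where genes differ. Capitals mark bases that differ from Tubb2a or have no partner in it in an alignment of the whole coding regions (GENCODE M21 transcripts, mm10, written 5′ to 3′ along the gene).
Tubb2a: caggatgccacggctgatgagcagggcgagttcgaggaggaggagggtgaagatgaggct
Tubb2b: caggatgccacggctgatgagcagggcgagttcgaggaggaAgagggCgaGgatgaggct
Tubb3: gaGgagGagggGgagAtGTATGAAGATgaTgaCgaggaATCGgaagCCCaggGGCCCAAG
Tubb4a: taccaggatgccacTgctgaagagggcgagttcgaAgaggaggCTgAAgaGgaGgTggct
Tubb5: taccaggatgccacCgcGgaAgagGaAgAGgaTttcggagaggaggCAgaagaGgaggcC
Tubb2b, which was not analysed here, has 3 marked bases in this stretch and is 96.5% identical to Tubb2a over the coding region, while Tubb3 has 31, Tubb4a 9 and Tubb5 12. Of the Tubb2a windows 49.6% occur elsewhere, 45.6% in Tubb2b and 18.8% in Tubb2a-ps2. Of the Tubb2a-ps2 windows 32.6% occur elsewhere. For Tubb3 no window does, for Tubb4a 0.184% and for Tubb5 0.115%, so the values of these 3 genes do not rest on shared reads of this kind, and those of Tubb2a and its pseudogene row are uncertain.

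**Figure D3:**
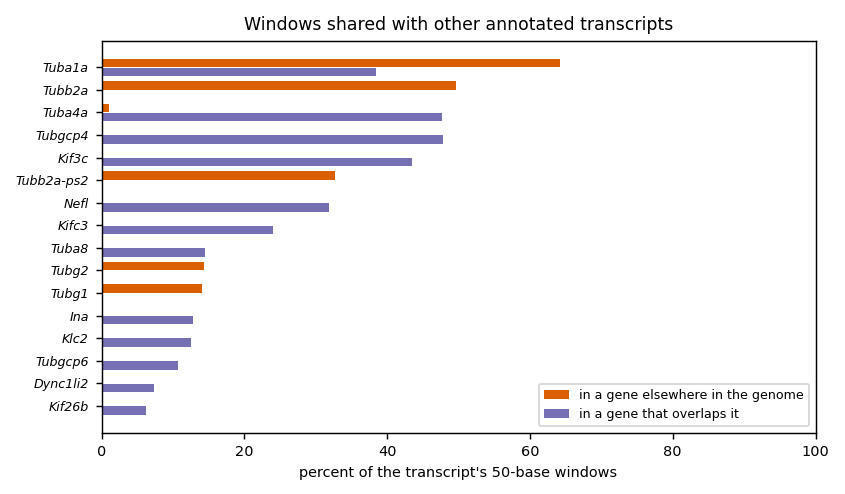
Percent of the 50-base windows of a transcript that also occur in an annotated transcript of a gene elsewhere in the genome (orange) or of a gene that overlaps it on either strand (purple), for the 16 genes with 5% or more in all. Tuba1a and Tubb2a have the largest shares elsewhere, 64.3% and 49.6%.

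**Figure D4:**
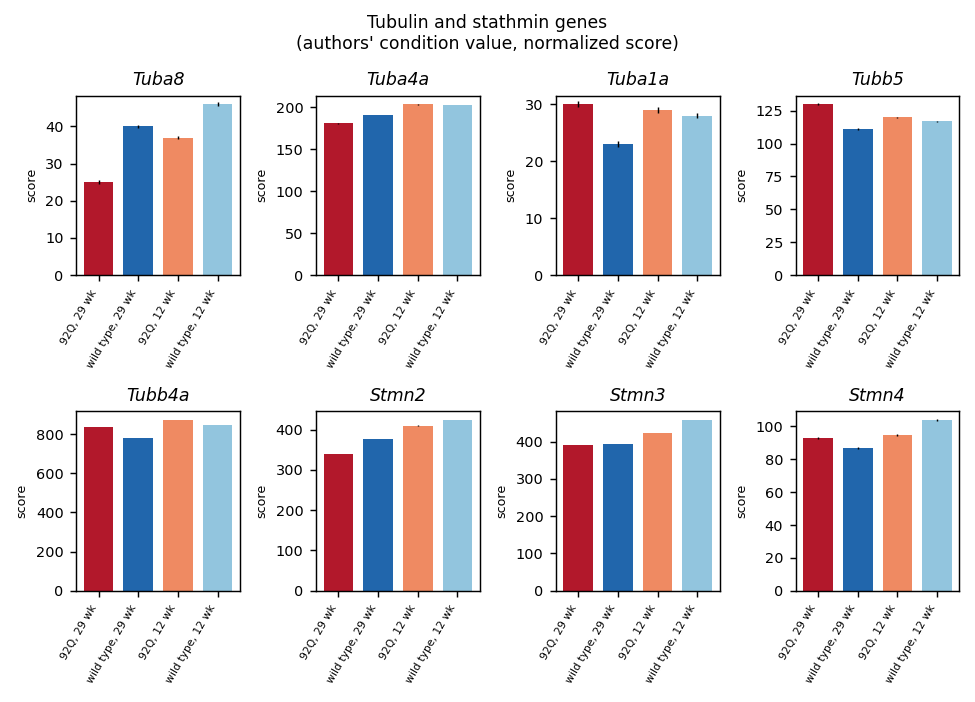
Normalized score of 5 tubulin and 3 stathmin genes in the 4 groups, each bar 1 group value and each tick the range of rounding. Tuba8 is lowest in 29-week 92Q (25) and highest in 12-week wild type (46), and Tuba1a is lowest in 29-week wild type (23).

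Gamma tubulin and its ring complex start new microtubules, at centrosomes and along existing polymers. The 7 genes of this role had values of 9 to 19, where rounding leaves a log2 ratio uncertain by about 0.1. Tubg2, the brain-enriched gamma tubulin, was 14 in 92Q and 12 in wild type at 29 weeks, and 13 in 92Q and 11 in wild type at 12 weeks, and was the only one whose genotype difference exceeded rounding. Tubg1 was equal between genotypes, 16 at 29 weeks and 17 at 12 weeks, and Tubg1 and Tubg2 share 13.9% and 14.3% of their windows with each other. The 5 ring complex genes Tubgcp2, Tubgcp3, Tubgcp4, Tubgcp5 and Tubgcp6 were each 1 unit higher in 92Q at 12 weeks. At 29 weeks 1 was higher, 2 lower and 2 equal. Of all genes 32.1% were higher at 12 weeks, and 49.5% were higher and 26.1% lower at 29 weeks. Tubgcp5 had values of 10 in 92Q and 9 in wild type at both ages. Every row of the table reached 10 in some group, so Tubgcp5, and likewise the kinesin Kif26b with 10 in 29-week 92Q and 8 to 9 elsewhere, could have a row only through the groups where they were high. The other 52 genes were at 10 or more in every group.

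Kinesins made up 19 of the 54 genes with their light chains and the adaptor Kifap3, and none passed 1.2-fold between genotypes. The kinesin-1 heavy chains carry vesicles, mitochondria and neurofilaments along axons. Kif5a, the neuronal one that transports neurofilaments, was 238 in 92Q and 243 in wild type at 29 weeks, and 216 in 92Q and 228 in wild type at 12 weeks. Kif5c, also neuronal, was 152 in 92Q and 167 in wild type at 29 weeks, and 170 in 92Q and 175 in wild type at 12 weeks, log2 ratios of -0.13 and -0.042. Kif5b, expressed in most tissues, was 43 in 92Q and 42 in wild type at 29 weeks and 39 in both at 12 weeks. In the deposited values the 2 neuronal heavy chains were thus below wild type at both ages by more than rounding. The background for this was 14.5% of all genes at 29 weeks and 18.7% at 12 weeks. The direction of the 2 chains was opposite to that of the neurofilament triplet. After upper quartile scaling the 12-week ratio of Kif5c was -0.007, and the 29-week ratio of Kif5a was -0.030 as deposited.

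The kinesin light chains, which link the heavy chains to cargo, were close to wild type. Klc1 was 190 in 92Q and 182 in wild type at 29 weeks, and 198 in 92Q and 196 in wild type at 12 weeks. Klc2 was 94 in 92Q and 98 in wild type at 29 weeks, and 101 in 92Q and 102 in wild type at 12 weeks. Klc4 was 11 in both genotypes at 29 weeks and 10 in both at 12 weeks. At 29 weeks Klc1 was thus the higher and Klc2 the lower one in 92Q. Among the kinesin-2 genes Kif3c was 39 in 92Q and 44 in wild type at 29 weeks, and 42 in 92Q and 44 in wild type at 12 weeks, a log2 ratio of -0.17 at 29 weeks, the lowest among the kinesins. Of its windows 43.4% lie in overlapping annotated transcripts. Kif3a and Kif3b form a motor that also builds cilia. Kif3a was 40 in 92Q and 41 in wild type at 29 weeks and 43 in both at 12 weeks, Kif3b was 16 in 92Q and 15 in wild type at 29 weeks and 16 in both at 12 weeks, and Kifap3, the adaptor that joins them to cargo, was 58 in both at 29 weeks and 61 in both at 12 weeks.

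The kinesin-3 genes move synaptic vesicle precursors and other vesicles. Kif1a, the main carrier of synaptic vesicle precursors, was 163 in 92Q and 161 in wild type at 29 weeks, and 150 in 92Q and 148 in wild type at 12 weeks. Its 29-week ratio was 0.018 and turned negative under scaling by median ratios. Kif1b was 114 in 92Q and 111 in wild type at 29 weeks, and 107 in 92Q and 105 in wild type at 12 weeks. Both stood slightly above wild type at each age in the deposited values. Kif1c, a vesicle carrier found in many cell types, was 26 in 92Q and 22 in wild type at 29 weeks, and 22 in 92Q and 21 in wild type at 12 weeks. Its log2 ratio of 0.23 at 29 weeks was the highest among the kinesins. Kif13a, which moves endosomes, was 13 in both genotypes at 29 weeks, and 12 in 92Q and 11 in wild type at 12 weeks. Of the remaining kinesins, Kif21a, which slows microtubule growth, Kif2a, which shortens microtubules, Kif26b, and the minus-end directed Kifc2 and Kifc3, only Kif2a differed by more than rounding, with 23 in 92Q and 21 in wild type at 29 weeks and 21 in both at 12 weeks. Kifc2 was 83 in both genotypes at 29 weeks and 78 in both at 12 weeks.

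Cytoplasmic dynein is built on a pair of heavy chains, to which intermediate, light intermediate and light chains bind. Of its 8 genes 6 were higher in 92Q at 29 weeks and 6 at 12 weeks, against 49.5% and 32.1% of all genes. By more than rounding 6 were higher at 29 weeks and 4 at 12 weeks, against 27.1% and 11.3% of all genes. None passed 1.2-fold. Dync1h1, the heavy chain that holds the motor, was 43 in 92Q and 41 in wild type at 29 weeks, and 40 in 92Q and 38 in wild type at 12 weeks. The intermediate chain gene Dync1i2 was 64 in 92Q and 59 in wild type at 29 weeks, and 64 in 92Q and 61 in wild type at 12 weeks. Its neuronal relative Dync1i1 was 46 in both genotypes at 29 weeks, and 49 in 92Q and 47 in wild type at 12 weeks. The light intermediate chains bind cargo adaptors. Dync1li2 was 50 in 92Q and 43 in wild type at 29 weeks, and 44 in 92Q and 43 in wild type at 12 weeks, a log2 ratio of 0.21 at 29 weeks, the largest of the dynein genes. Dync1li1 was 33 in 92Q and 31 in wild type at 29 weeks, and 31 in 92Q and 30 in wild type at 12 weeks.

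The dynein light chains went in different directions. Dynlrb1, the roadblock light chain, was 375 in 92Q and 393 in wild type at 29 weeks, and 417 in 92Q and 444 in wild type at 12 weeks, log2 ratios of -0.068 and -0.090. Dynll2, a light chain that many proteins besides dynein bind, was 273 in 92Q and 263 in wild type at 29 weeks, and 270 in 92Q and 266 in wild type at 12 weeks. Dynlt3 was 53 in 92Q and 48 in wild type at 29 weeks, and 48 in 92Q and 49 in wild type at 12 weeks, where the 12-week difference is within rounding. Dynlrb1 was the only dynein gene below wild type at both ages by more than rounding in the deposited values, and after quantile normalization its 29-week ratio was -0.0027.

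The genotype ratios at the 2 ages share no group, so they can be set side by side. Of the 54 genes 31 had ratios of the same sign at both ages, 7 of opposite sign and 16 had a ratio of 0 at one or both. Among genes with both ratios different from 0, that is 81.6% of the set and 54.6% of all genes. Pearson's r between the ratios was 0.61 over the 54 genes and 0.42 over the 53 without Tuba8, against 0.086 over all 7659 genes with both ratios, and Spearman's rho was 0.43, 0.39 and 0.10. These are descriptions across genes, which are not independent and share the same pools and column scaling. At both ages Xist was lower and Eif2s3y higher in 92Q. Like directions at the 2 ages therefore cannot be assigned to genotype apart from the sexes pooled. The largest differences between the ages were those of Tuba8 (-0.35), Tuba1a (0.32) and Stmn4 (0.22), as 29-week minus 12-week log2 ratio.

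**Figure D5:**
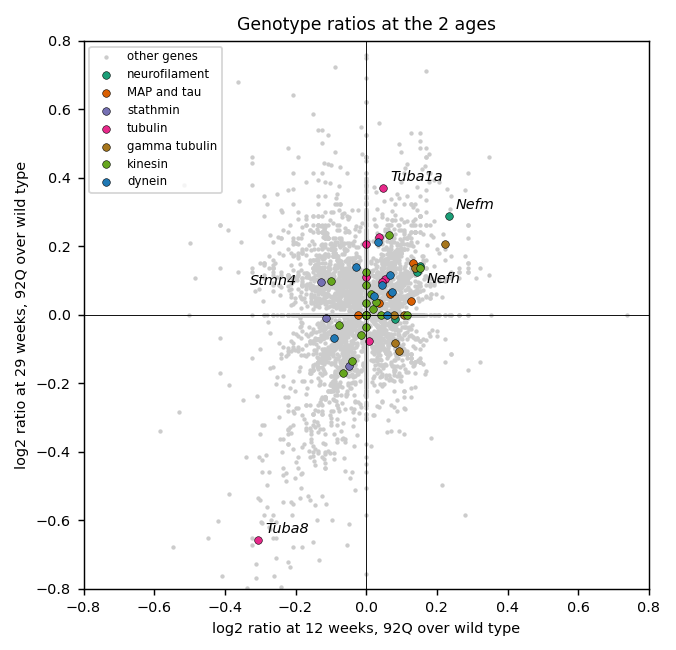
Log2 ratio of 92Q over wild type at 12 weeks (x axis) and at 29 weeks (y axis) for the 54 genes, coloured by role, over all other genes in grey, with 53 other genes outside the axes. Tuba8 lies at -0.31 and -0.66 in the lower left, and Nefm at 0.23 and 0.29 in the upper right.

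With age, the neurofilament triplet was higher and stathmins lower at 29 weeks in both genotypes. In 92Q 3 of the 54 genes passed 1.2-fold between 29 and 12 weeks, all lower at 29 weeks, which is 5.56% against 8.71% of 7667 genes (4.97% higher and 3.74% lower). They were Stmn2 with 340 at 29 weeks and 410 at 12 weeks, Tuba8 with 25 at 29 weeks and 37 at 12 weeks, and Tubgcp4 with 12 at 29 weeks and 15 at 12 weeks, whose call rounding alone can undo and of whose windows 47.9% lie in the overlapping gene Trp53bp1. In wild type only Tuba1a passed, with 23 at 29 weeks and 28 at 12 weeks, 1.85% of the set against 5.25% of 7663 genes (2.07% higher and 3.17% lower), and rounding can undo that call too. Past 1.1-fold, 8 genes were higher and 7 lower at 29 weeks in 92Q (background 13.3% and 10.6%), and 7 were higher and 7 lower in wild type (background 9.00% and 15.3%). The age comparisons use the same 4 group values as the genotype comparisons and are not separate evidence. Library numbers of the 2 ages do not overlap. In wild type Eif2s3y was 6 at 29 weeks and is listed at 0 at 12 weeks, while Xist was 63 and 66. In 92Q Eif2s3y was 15 at 29 weeks and 12 at 12 weeks, and Xist 25 and 30. Effects of age, of the sexes pooled and of whatever goes with the library numbers cannot be told apart.

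Nefl was 168 at 29 weeks and 148 at 12 weeks in 92Q, and 154 at 29 weeks and 134 at 12 weeks in wild type, log2 ratios of 0.18 and 0.20. Nefm had log2 ratios of 0.20 in 92Q and 0.14 in wild type, and Nefh of 0.080 and 0.089. These were positive in each genotype, unlike those of the stathmins. Stmn2 had log2 ratios of -0.27 in 92Q and -0.17 in wild type, Stmn3 of -0.11 and -0.22, and Stmn4 of -0.030 and -0.25. Dynlrb1 had log2 ratios of -0.15 in 92Q and -0.18 in wild type, and Kif5a of 0.14 and 0.092. The directions of these genes held under the 3 scalings, except that the 92Q ratio of Stmn4 was 0 after quantile normalization. For the tubulins the genotypes differed in count, with 4 of 8 lower at 29 weeks in 92Q, and 7 of 8 lower and Tubb3 equal in wild type. Over all 54 genes in wild type 24 were higher and 25 lower at 29 weeks, and 34 higher and 15 lower after quantile normalization, where Mapt, Tuba4a, Tubb4a, Kif5c, Dync1i2 and Dynll2 changed sign and 49.9% of the differing genes of the whole table were higher. Of all genes in wild type as deposited 32.5% were higher and 45.9% lower. In 92Q 30 of the 54 were higher and 20 lower, against 42.4% and 35.4% of all genes.

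The 29-week 92Q value alone was the highest of the 4 for 23 of the 54 genes, 42.6% against 26.2% of all genes, and the 12-week wild-type value alone was the lowest for 18, 33.3% against 16.0%. Genes of low value tie more often, which bears on these shares. Both held for the neurofilament triplet, Map1a, Map1b, Map1s and Map2, and also for Tubg2, Kif1a, Kif1b, Kif1c, Kif26b, Dync1h1 and Dync1li1. The share of all genes for which both held was not computed, so this list has no background beside it. Some of these orders rest on steps of 1 unit, as for Map1s and Dync1li1, which rounding alone can give. Kif26b reached 10 in 29-week 92Q alone, so its highest group was fixed. The 12-week wild-type value alone was the highest for 8 genes, 14.8% against 21.7% of all genes.

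Partner genes of the same machinery were given by 5 lists and also differed little by genotype. Beside their counts stand 49.5% of all genes higher and 26.1% lower at 29 weeks, and 32.1% and 36.7% at 12 weeks. At 29 weeks, of 18 measured dynactin and dynein regulators 14 were higher and 1 lower in 92Q with none past 1.2-fold (median log2 ratio 0.050), while at 12 weeks 7 were higher and 8 lower (median 0.00). The dynactin subunit Dctn2 was 82 in 92Q against 73 in wild type, and Nde1, a dynein regulator, 18 against 16. Of 18 kinesin cargo adaptors 11 were higher and 5 lower at 29 weeks (median 0.016) and 10 higher and 6 lower at 12 weeks, none past 1.2-fold, with the syntaxin and kinesin linker Sybu at 40 in 92Q against 45 in wild type at 29 weeks. Of 30 other microtubule-associated proteins 15 were higher and 11 lower at 29 weeks (median 0.018) and 15 higher and 8 lower at 12 weeks, and at 29 weeks Dpysl3 was past 1.2-fold with 10 in 92Q against 7 in wild type. Dpysl3 reached 10 in that group alone. Mapre1, which binds growing plus ends, was 13 in 92Q against 11 in wild type, and Tppp3 80 against 70.

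Among 19 tubulin folding and modifying enzymes 12 were higher and 2 lower at 29 weeks (median 0.066), and 10 higher and 5 lower at 12 weeks. Tbcd of this list reached 10 in 29-week 92Q alone. Ttll5, an enzyme that adds glutamates to tubulin, was the only one past 1.2-fold, with 27 in 92Q against 36 in wild type, and 35 in 92Q against 38 in wild type at 12 weeks. Atat1, which acetylates alpha tubulin, was 37 in 92Q against 32 in wild type at 29 weeks, and the deacetylase Sirt2 116 against 102. Of 21 other intermediate filament and axonal scaffold genes 13 were higher and 5 lower at 29 weeks (median 0.047), and 15 higher and 2 lower at 12 weeks. Marcks, a membrane protein that binds actin, was past 1.2-fold higher with 51 in 92Q against 41 in wild type. Basp1, a related protein of axon ends, was 65 in 92Q against 56 in wild type. At 12 weeks no gene of the 5 lists passed 1.2-fold.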

How the data were processed

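Total RNA of cerebellum was isolated with TRIzol and RNeasy, made into Illumina TruSeq libraries and sequenced on a HiSeq instrument as single-end reads of 50 bases, per the labels' protocols. Bowtie 0.12.7, SAMtools 0.1.12a, Cuffdiff 1.3.0 and build mm10 are named in the submitters' processing notes, with no role or order, and annotation, filters, normalization and the handling of strand and of reads that match several genes are steps not given in the sources used here. Deposited by the authors was a score per gene and condition, a whole number whose median was 22 in each of the 4 columns, which was read as normalized across conditions and rounded. Its depth is unknown, so no counting interval was computed. Every row reached 10 in some condition.

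Rows with a number in place of a name (17) were left out. Log2 ratios used a pseudocount of 1 and required a value of 5 in one or both conditions, a scale that understates the change of low genes. Ranges of rounding moved each value by 0.5. No test was possible with 1 value per condition. The ratio step was checked on simulated data. Shared windows were exact matches of 50 bases on either strand among GENCODE M21 transcripts, taken for the transcript with the longest complete coding region. One partner gene and the alpha tubulin sequences are not reported here. Coordinates are from GENCODE M21. Alternatives were other pseudocounts, thresholds, a minimum mean, other scalings of the columns and other member sets.

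The members, gene lists and thresholds were chosen with earlier results of these data known. Named were all neurofilament, stathmin and microtubule-associated members, members past 1.2-fold, the 3 highest of each tubulin, kinesin and dynein group, and up to 3 genes of each partner list with the largest 29-week ratio. Other members were added after their values were seen. Python 3.11.15, numpy 2.4.6, pandas 2.3.3 and Biopython 1.88 were used.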

Additional observations from a re-analysis of the deposited data

Results flagged for a closer look

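In 3 genes the same contrast had opposite directions at the 2 ages or in the 2 genotypes by more than rounding, and none of these differences was tested, since each group has 1 value. The genotype ratio of Stmn4 was 0.095 at 29 weeks (93 in 92Q and 87 in wild type) and -0.13 at 12 weeks (95 in 92Q and 104 in wild type). With age, Tubb5 had a log2 ratio of 0.11 in 92Q (130 at 29 weeks and 120 at 12 weeks) and of -0.075 in wild type (111 at 29 weeks and 117 at 12 weeks). Dynll2 had one of 0.016 in 92Q (273 at 29 weeks and 270 at 12 weeks) and of -0.016 in wild type (263 at 29 weeks and 266 at 12 weeks), a ratio that was above 0 in wild type under each of the 3 scalings.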

How the results depend on the processing

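No paired analysis was possible because each condition has 1 deposited value, and for the same reason no library could be left out. Of 112 values recomputed under alternatives, 90 stayed within 1.5 times the count or within rounding of the median and 22 did not. At 1.5-fold the numbers of genes higher and lower in 92Q were 0 and 1 at 29 weeks and 0 and 0 at 12 weeks, and those higher and lower at 29 weeks of age were 0 and 0 in both genotypes. At 1.1-fold they were 10 and 3 at 29 weeks and 5 and 1 at 12 weeks, and with age 8 and 7 in 92Q and 7 and 7 in wild type. Scaling by median ratios, and leaving out rows over 25% shared windows, each left 1 gene higher in 92Q at 29 weeks. Upper quartile scaling gave 1 gene higher in 92Q at 12 weeks and raised the median to 0.064. In wild type with age, the count of lower genes was 2 with a pseudocount of 0.1, and 0 with a pseudocount of 5, after upper quartile scaling, after scaling by median ratios and without the shared rows, and the median was 0.034 after upper quartile scaling and 0.053 after quantile normalization, against 0.00 as deposited. The alternatives with a minimum mean of 20 and without the Tubgcp rows moved no count or median beyond these limits. Tuba8 passed 1.2-fold lower in 92Q at both ages under all pseudocounts and scalings tried. Depth and replicate error are unknown, so small ratios cannot be told from sampling noise.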
